A study of Mus musculus with 18 samples.

Results

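The transcripts described here encode the machinery that attaches the ubiquitin-like protein ISG15 to other proteins and takes it off again: the modifier *Isg15*, the E1 enzyme *Uba7*, the E2 enzyme *Ube2l6*, the E3 ligase *Herc6* and the protease *Usp18*. They were chosen by gene symbol from a table of counts that lists 56748 genes, and all 5 were found in it. All 5 were also among the 13691 genes with enough counts to be tested.

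RNA was sequenced from RAW264.7 cells, a mouse macrophage line, in 6 conditions of 3 libraries each, 18 in all. TBHQ (tert-butylhydroquinone) is a food antioxidant, LPS (lipopolysaccharide) is a bacterial cell wall component sensed by TLR4, and PIC (poly I:C) is a synthetic double-stranded RNA. The control was left in medium only, 1 group had 5 µM TBHQ for 4 h, and stimulated cells received either LPS at 0.1 µg/mL or PIC at 20 µg/mL, each for 12 h and each with or without the same TBHQ treatment for 4 h beforehand (LPS + TBHQ and PIC + TBHQ). The question was how TBHQ alters the response of macrophages to each stimulus. TBHQ was dissolved in DMSO, and a DMSO control for these RNA samples is not given in the sources used here, so TBHQ and its solvent cannot be told apart. TBHQ alone ended at 4 h, while the other groups, control included, followed a 12 h design, so that TBHQ and time in culture cannot be told apart where TBHQ alone is set against the control. Whether cells stimulated without TBHQ first waited 4 h in medium is not given in the sources used here. The replicates are cultures of 1 cell line, described by the study as biological replicates, and p-values measure only the spread between them.

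Library totals ran from 14423390 to 18851626 counts (median 15742338). Levels are given as FPKM from the authors, counts scaled by gene length and by a size of each library, so that genes of different length can be compared. Of 8 macrophage markers, 7 were at 1 FPKM or more in the median library, led by *Lyz2* with 3400 to 4650 FPKM, and the exception was *Mrc1*, which did not exceed 0.343 FPKM. The 8 markers summed to between 5700 and 6700 FPKM per library. Markers of T cells (4 genes), fibroblasts (3 genes) and epithelial cells (3 genes) summed to at most 0.0941 FPKM in any library, and those of B cells (3 genes) to at most 0.338 FPKM. Of 3 neutrophil markers, *Ly6g* and *S100a9* had no count and *S100a8* lay between 0.264 and 6.01 FPKM. In the edgeR test *S100a8* was called higher than in the control with LPS (2.05 on the log2 scale) and PIC (2.82). It was also called higher with LPS + TBHQ (2.14) and PIC + TBHQ (2.27). TBHQ alone, and TBHQ added to either stimulus, gave no call for *S100a8*. Of 3 markers of plasmacytoid dendritic cells, *Siglech* had no count, while *Tcf4* lay between 1.45 and 2.02 FPKM and *Bst2*, which is also an interferon-stimulated gene, between 231 and 741 FPKM. The macrophage marker *Adgre1* moved with the conditions, with mean levels of 18.4 FPKM in the control and 12.8 after TBHQ, 50.6 and 40.1 for LPS without and with TBHQ, and 67.6 and 46.6 for PIC. In the same order *Csf1r* had means of 154, 174, 91.7, 120.4, 86.1 and 117 FPKM. *Itgam* ran from 7.53 to 26.5 FPKM and *Cd14* from 758 to 1690 FPKM over the libraries, and the part of these markers in the results below was not tested. In these bulk samples a smaller number of expressing cells and less RNA per cell cannot be told apart.

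ISG15 is made in response to type I interferon, which macrophages release after they sense viral RNA or bacterial products. It is activated by UBA7, passed to UBE2L6 and joined to target proteins by an E3 ligase, which is HERC5 in human cells and HERC6 in mouse cells, while USP18 cuts it off again. USP18 also binds the type I interferon receptor and dampens its signal, and free ISG15 can be secreted.

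*Isg15* (ENSMUSG00000035692, chromosome 4, 156283912 to 156285253, minus strand, in the coordinates of the authors' files) is the modifier itself and had 598 to 6918 counts per library. The 3 control libraries held 109, 106 and 96.4 FPKM of *Isg15*, against 49.9, 56.0 and 59.8 FPKM with TBHQ alone. With LPS the libraries held 299, 287 and 301 FPKM of *Isg15*, against 126, 126 and 137 FPKM with LPS + TBHQ. With PIC they held 502, 561 and 581 FPKM of *Isg15*, against 333, 331 and 320.1 FPKM with PIC + TBHQ. The 6 conditions thus fell in the order TBHQ, control, LPS + TBHQ, LPS, PIC + TBHQ and PIC, and no 2 neighbors in this order overlapped. Mean levels of *Isg15* ran from 55.3 ± 5.01 FPKM with TBHQ alone to 548 ± 40.9 FPKM with PIC (SD, n = 3 libraries). Relative to the control, *Isg15* rose 2.83-fold with LPS (SE of the log2 change 0.058, edgeR quasi-likelihood test, Benjamini-Hochberg adjusted p = 5.86e-23). It rose with PIC by 2.38 on the log2 scale, a fold of 5.22 (SE 0.082, edgeR quasi-likelihood test, Benjamini-Hochberg adjusted p = 1.5e-29).

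*Uba7* (ENSMUSG00000032596, chromosome 9, 107852704 to 107861259, plus strand) encodes the E1 that activates ISG15 and had 953 to 3142 counts per library. *Uba7* stood at 12.2, 12.5 and 11.9 FPKM in the control libraries and at 9.24, 9.59 and 8.35 FPKM with TBHQ alone. With LPS it stood at 26.0, 24.5 and 27.9 FPKM, and with LPS + TBHQ at 14.7, 15.96 and 15.03 FPKM. With PIC it stood at 25.1, 28.4 and 27.7 FPKM, and with PIC + TBHQ at 20.6, 21.4 and 20.8 FPKM. The order was TBHQ, control, LPS + TBHQ, PIC + TBHQ, LPS and PIC, in which only LPS (26.1 ± 1.72 FPKM) and PIC (27.1 ± 1.74 FPKM) overlapped (mean ± SD, n = 3). *Uba7* rose by a similar amount with either stimulus, by 1.09 on the log2 scale with LPS (SE 0.057, edgeR quasi-likelihood test, Benjamini-Hochberg adjusted p = 2.3e-19). With PIC the rise was 1.13 (SE 0.057, edgeR quasi-likelihood test, Benjamini-Hochberg adjusted p = 2.88e-20).

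*Ube2l6* (ENSMUSG00000027078, chromosome 2, 84629172 to 84640679, plus strand) encodes the E2 that carries activated ISG15 and had 1021 to 2763 counts per library. The control libraries gave 48.5, 47.5 and 47.1 FPKM of *Ube2l6*, and the libraries with TBHQ alone gave 30.0, 32.2 and 32.4 FPKM. Those with LPS gave 74.1, 73.9 and 71.9 FPKM of *Ube2l6*, and those with LPS + TBHQ gave 38.1, 36.0 and 38.0 FPKM. Those with PIC gave 80.7, 84.3 and 81.7 FPKM of *Ube2l6*, and those with PIC + TBHQ gave 57.2, 60.9 and 57.1 FPKM. Here LPS + TBHQ (37.4 ± 1.17 FPKM) lay below the control (47.7 ± 0.709 FPKM), and the order TBHQ, LPS + TBHQ, control, PIC + TBHQ, LPS and PIC had no overlap between neighbors (mean ± SD, n = 3). *Ube2l6* rose by 0.61 on the log2 scale with LPS (SE 0.020, edgeR quasi-likelihood test, Benjamini-Hochberg adjusted p = 6.61e-15). It rose by 0.77 with PIC (SE 0.023, edgeR quasi-likelihood test, Benjamini-Hochberg adjusted p = 4.58e-18).

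*Herc6* (ENSMUSG00000029798, chromosome 6, 57557985 to 57641617, plus strand) encodes the ligase that serves ISG15 in the mouse, and with 150 to 637 counts per library it was the member with the fewest counts. Of its 50-base transcript words, 12.5% also occur in other genes, above the 10% taken as the limit for remark, so that its counts are less certain than those of the other members (0% to 3.96%). *Herc6* measured 1.88, 1.84 and 1.60 FPKM in the control libraries and 0.947, 1.03 and 0.991 FPKM with TBHQ alone. It measured 3.08, 3.45 and 2.95 FPKM with LPS and 1.56, 1.70 and 1.72 FPKM with LPS + TBHQ. It measured 3.63, 3.84 and 4.05 FPKM with PIC and 2.31, 2.26 and 2.36 FPKM with PIC + TBHQ. From low to high the conditions were TBHQ, LPS + TBHQ, control, PIC + TBHQ, LPS and PIC, and of these neighbors only LPS + TBHQ (1.66 ± 0.0871 FPKM) and the control (1.77 ± 0.151 FPKM) overlapped (mean ± SD, n = 3). *Herc6* rose by 0.83 on the log2 scale with LPS (SE 0.101, edgeR quasi-likelihood test, Benjamini-Hochberg adjusted p = 1.29e-10). It rose by 1.10 with PIC (SE 0.086, edgeR quasi-likelihood test, Benjamini-Hochberg adjusted p = 2.96e-14).

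*Usp18* (ENSMUSG00000030107, chromosome 6, 121222865 to 121247876, plus strand) encodes the protease that removes ISG15 and had 1813 to 4523 counts per library. In the control libraries *Usp18* reached 58.7, 58.9 and 55.3 FPKM, and with TBHQ alone 39.4, 39.7 and 40.8 FPKM. In the LPS libraries it reached 80.9, 74.7 and 80.4 FPKM, and with LPS + TBHQ 47.6, 49.6 and 50.5 FPKM. In the PIC libraries it reached 91.5, 93.1 and 95.7 FPKM, and with PIC + TBHQ 71.1, 69.8 and 72.9 FPKM. The order was the same as for *Ube2l6* and no neighbors overlapped, with means from 40.0 ± 0.733 FPKM with TBHQ alone to 93.4 ± 2.14 FPKM with PIC (SD, n = 3). *Usp18* had the smallest rise of the 5 genes, 0.44 on the log2 scale with LPS (SE 0.046, edgeR quasi-likelihood test, Benjamini-Hochberg adjusted p = 7.47e-12). With PIC it rose by 0.68 (SE 0.035, edgeR quasi-likelihood test, Benjamini-Hochberg adjusted p = 2.75e-17).

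**Figure D1:**
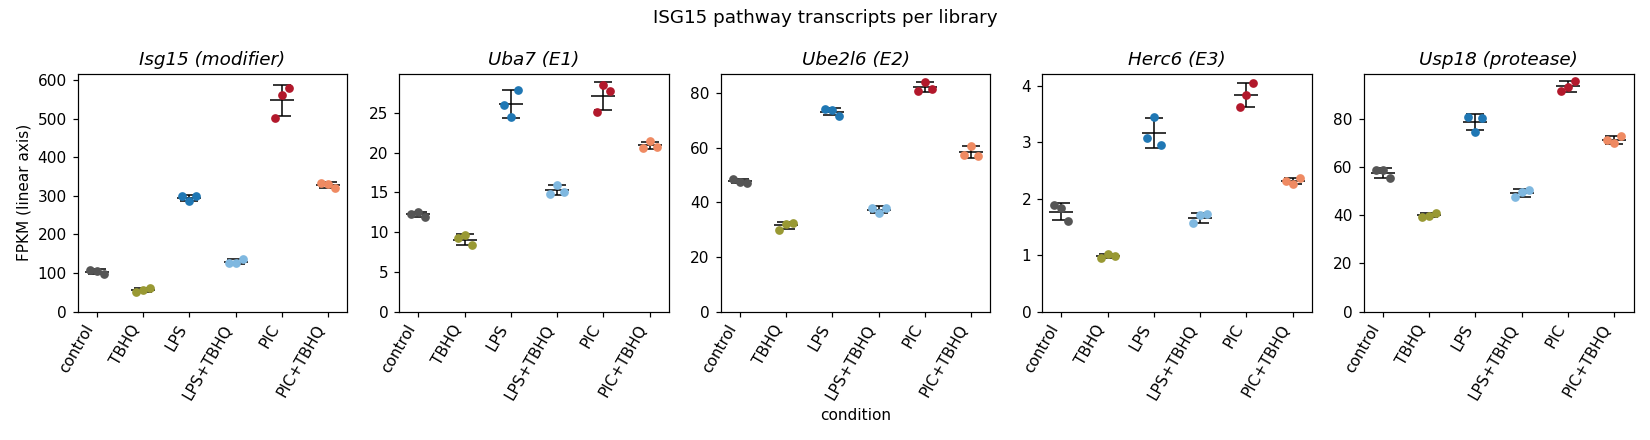
FPKM of each gene (vertical axes, linear and starting at 0) in the 6 conditions, with 1 point per library and bars for the mean and SD of 3 libraries. In each panel TBHQ alone is the lowest condition and PIC the highest, and each stimulus with TBHQ lies below the same stimulus without it.

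Set side by side, all 5 genes were called higher with LPS than in the control, at an adjusted p under 0.05, in a comparison where 24.0% of the tested genes were called higher. All 5 were called higher with PIC too, where 28.6% of the tested genes were called higher. Both comparisons use the same control libraries. The median change of the 5 genes was 0.83 with LPS and 1.10 with PIC on the log2 scale, while that of all tested genes was 0.00 and −0.01. Under the study's own stricter rule, an adjusted p under 0.01 and a log2 change beyond 2, *Isg15* with PIC was the only member called (1 of 5, against 3.57% of the tested genes). The rule calls 1.64% of the tested genes with LPS, 0.190% with TBHQ, 0.964% for LPS + TBHQ and 2.15% for PIC + TBHQ. Scaling by total library size in place of TMM moved the median of all tested genes by −0.22 with PIC against the control, and the changes of the members with it, to 2.17 for *Isg15*, 0.92 for *Uba7*, 0.55 for *Ube2l6*, 0.88 for *Herc6* and 0.46 for *Usp18*, all still called.

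Compared directly, 4 of 5 genes were called higher with PIC than with LPS, against 14.9% of the tested genes. *Isg15* differed most, by 0.88 on the log2 scale (SE 0.065, edgeR quasi-likelihood test, Benjamini-Hochberg adjusted p = 1.26e-16), and every PIC library was above every LPS library, while 37.1% of the tested genes had conditions that did not overlap. *Herc6* differed by 0.27, *Usp18* by 0.24 and *Ube2l6* by 0.16, also without overlap between the libraries. The exception was *Uba7*, with a difference of 0.05 (SE 0.076, edgeR quasi-likelihood test, Benjamini-Hochberg adjusted p = 0.55). The smaller differences rest on the scaling: under total library size, which moved the median of all genes by −0.13 here, *Ube2l6* (0.03) and *Herc6* (0.14) were no longer called, *Usp18* stood at 0.11 and *Uba7* at −0.08.

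TBHQ before LPS lowered every member. All 5 were called lower with LPS + TBHQ than with LPS, in a comparison where 12.2% of the tested genes were called lower, and for each of them the 3 libraries with TBHQ were below the 3 without, while 35.8% of the tested genes had conditions that did not overlap, whichever was lower. *Isg15* was lower by 56.1% (log2 change −1.19, SE 0.045, edgeR quasi-likelihood test, Benjamini-Hochberg adjusted p = 1.7e-19), and 196 of the 13691 tested genes had a lower log2 change. *Ube2l6* was lower by 49.1% (log2 change −0.97, SE 0.030, edgeR quasi-likelihood test, Benjamini-Hochberg adjusted p = 1.15e-19). *Herc6* was lower by 47.4% (log2 change −0.93, SE 0.082, edgeR quasi-likelihood test, Benjamini-Hochberg adjusted p = 3.8e-11). *Uba7* was lower by 41.7% (log2 change −0.78, SE 0.064, edgeR quasi-likelihood test, Benjamini-Hochberg adjusted p = 7.89e-15). *Usp18*, the protease, was lower by 37.5% (log2 change −0.68, SE 0.044, edgeR quasi-likelihood test, Benjamini-Hochberg adjusted p = 5.03e-16).

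TBHQ before PIC lowered them too. All 5 were called lower with PIC + TBHQ than with PIC, against 15.5% of the tested genes, and for each the libraries with TBHQ were again below those without, while 41.7% of the tested genes had conditions that did not overlap. *Isg15* was lower by 39.7% (log2 change −0.73, SE 0.064, edgeR quasi-likelihood test, Benjamini-Hochberg adjusted p = 1.72e-14), and *Herc6* by nearly as much, 39.4% (log2 change −0.72). *Ube2l6* was lower by 28.5% (log2 change −0.48, SE 0.034, edgeR quasi-likelihood test, Benjamini-Hochberg adjusted p = 8.02e-12). *Usp18* was lower by 23.2% (log2 change −0.38) and *Uba7* by 22.2% (log2 change −0.36, SE 0.056, edgeR quasi-likelihood test, Benjamini-Hochberg adjusted p = 3.3e-07).

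The change with TBHQ under PIC was then tested against the change with TBHQ under LPS, where a positive difference means a smaller fall under PIC. Of the 5 genes, 4 were called, all with a positive difference, while 0.825% of the tested genes were called in that direction. *Ube2l6* had the largest difference, 0.49 on the log2 scale (SE 0.045, edgeR quasi-likelihood test, Benjamini-Hochberg adjusted p = 9.91e-07). For *Isg15* the difference was 0.46 (SE 0.078, edgeR quasi-likelihood test, Benjamini-Hochberg adjusted p = 0.000124). For *Uba7* it was 0.42 (SE 0.085, edgeR quasi-likelihood test, Benjamini-Hochberg adjusted p = 0.000379), and for *Usp18* 0.30. *Herc6*, the gene with the fewest counts, had a difference of 0.21 that did not pass the test (SE 0.095, edgeR quasi-likelihood test, Benjamini-Hochberg adjusted p = 0.429), and it was 0.12 without LPS replicate 2. The number of all genes called in this comparison moved by over 1.5 times with 1 library left out, from 113 higher to 72 without LPS replicate 3 and to 74 without PIC replicate 1 or LPS + TBHQ replicate 2, while the same 4 members were called in each of these.

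**Figure D2:**
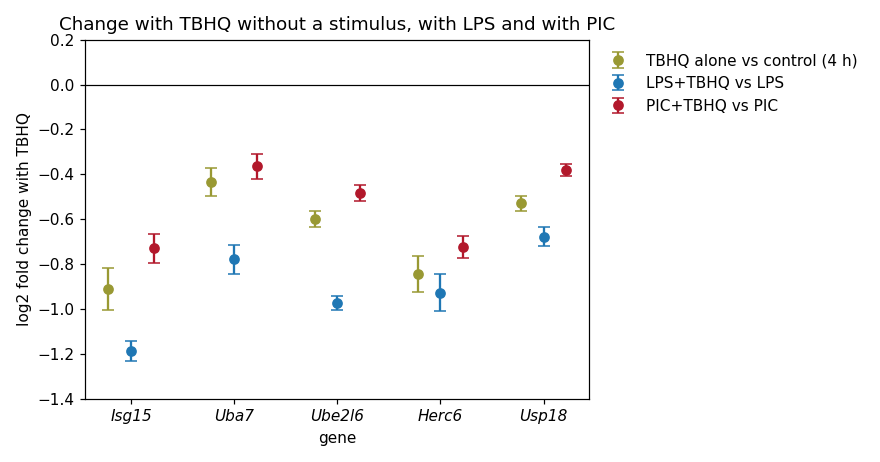
Log2 fold change with TBHQ (vertical axis) for the 5 genes without a stimulus, with LPS and with PIC, from 3 libraries against 3, with bars of 1 SE. Every point lies below 0, and for each gene the point for LPS lies lowest and the point for PIC highest.

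How far TBHQ brought the stimulated cells toward the untreated level differed between the genes. Against the control, LPS + TBHQ left *Isg15* at 0.31 and *Uba7* at 0.31 on the log2 scale, both called higher (2 of 5, against 21.2% of the tested genes). *Ube2l6* was called lower than the control, at −0.36 (SE 0.030, edgeR quasi-likelihood test, Benjamini-Hochberg adjusted p = 1.1e-08), and so was *Usp18*, at −0.24 (2 of 5, against 22.5% of the tested genes). *Herc6* stood at −0.10 and did not pass the test (SE 0.086, edgeR quasi-likelihood test, Benjamini-Hochberg adjusted p = 0.394), between −0.17 and −0.05 with 1 library left out. With PIC + TBHQ all 5 genes were called higher than in the control, against 26.4% of the tested genes. *Isg15* remained 1.65 above the control on the log2 scale and *Uba7* 0.77, while *Herc6* (0.38), *Usp18* (0.30) and *Ube2l6* (0.29) lay closer to it. Total library size moved the median of all genes by −0.15 in this comparison and left these 3 at 0.23, 0.15 and 0.14, still called. Between the 2 stimuli with TBHQ, all 5 genes were called higher with PIC + TBHQ than with LPS + TBHQ, against 11.9% of the tested genes, from 0.46 for *Uba7* to 1.34 for *Isg15* on the log2 scale.

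TBHQ alone for 4 h gave the lowest level of each gene. All 5 were called lower than in the control, against 14.8% of the tested genes, and in each the 3 libraries with TBHQ lay below the 3 control libraries, while 41.0% of the tested genes had conditions that did not overlap. *Isg15* was lower by 46.8% (log2 change −0.91, SE 0.092, edgeR quasi-likelihood test, Benjamini-Hochberg adjusted p = 2.94e-14), and *Herc6* by 44.2% (log2 change −0.84). *Ube2l6* was lower by 34.0% (log2 change −0.60, SE 0.037, edgeR quasi-likelihood test, Benjamini-Hochberg adjusted p = 3.38e-13). *Usp18* was lower by 30.7% (log2 change −0.53) and *Uba7* by 26.0% (log2 change −0.43, SE 0.064, edgeR quasi-likelihood test, Benjamini-Hochberg adjusted p = 1.14e-07). On log2(FPKM + 1), where low genes are compressed, the change of *Herc6* was −0.48.

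The ratio of *Isg15* to *Usp18* FPKM within a library does not depend on how libraries are scaled, and it was 1.85, 1.80 and 1.74 in the control. It was 3.69, 3.83 and 3.74 with LPS, and 5.49, 6.02 and 6.07 with PIC, so that each stimulus left more *Isg15* per *Usp18* transcript. With LPS + TBHQ it was 2.64, 2.55 and 2.71, and with PIC + TBHQ 4.69, 4.74 and 4.39. TBHQ alone gave the lowest ratios, 1.26, 1.41 and 1.47. On the log2 scale the ratio was higher than in the control by 1.06 with LPS and by 1.70 with PIC, and with TBHQ alone the difference was −0.39. It changed by −0.51 from LPS to LPS + TBHQ, by −0.35 from PIC to PIC + TBHQ, and by 0.64 from LPS to PIC. No libraries overlapped in these 6 comparisons, each of which gave p = 0.1 in a two-sided exact permutation test, the smallest p that 3 libraries against 3 allow. The control, LPS and PIC libraries recur among these comparisons.

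Other genes of the pathway were taken from lists, and the counts called in every list below stand against these shares of all tested genes. With LPS 24.0% were called higher and 24.1% lower, with PIC 28.6% and 30.1%, and with TBHQ alone 14.2% and 14.8%. For LPS + TBHQ against LPS the shares were 11.7% higher and 12.2% lower, and for PIC + TBHQ against PIC 15.8% and 15.5%. Of 20 other interferon-stimulated genes, such as *Ifit1*, *Mx1* and *Oas1a*, all were tested. In this list 19 of 20 were called higher with LPS and 20 of 20 with PIC, with median log2 changes of 0.71 and 1.29. With TBHQ alone 18 were called lower and 1 higher (median −0.46). All 20 were called lower with LPS + TBHQ than with LPS (median −1.01), and all 20 with PIC + TBHQ than with PIC (median −0.71), and 11 had a smaller fall under PIC by the test of the difference (7 in limma on log2(FPKM + 1)). The 5 members had medians of −0.93 and −0.48 in the same comparisons, and the median of all tested genes was 0.00 and 0.01. The largest fall in the list under LPS was that of *Mx1*, followed by those of *Ifit3* (−3.12) and *Oasl2* (−2.41), which encode an RNA-binding antiviral protein and an oligoadenylate synthetase-like protein. *Mx1*, an antiviral GTPase that is also a reported ISG15 target, had 5 counts over the 3 LPS + TBHQ libraries and 62 over the 3 LPS libraries, a ratio of 0.0679 after TMM scaling (95% exact interval 0.0213 to 0.167, counting error only). Under PIC the largest falls were those of *Mx1* (−1.99), *Ifit3* (−1.80) and *Cmpk2* (−1.66). The smallest under LPS were those of *Oas3* (−0.33), *Oas1a* (−0.55) and *Oas2* (−0.57), and under PIC those of *Oas3* (−0.13), *Bst2* (−0.30) and *Ifi35* (−0.33), of which that of *Oas3* was not called under total library size (−0.07).

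Genes of other ubiquitin-like systems (SUMO, NEDD8, UFM1, URM1, ATG12 and their enzymes) formed the list nearest to the members in function. This list also held the modifiers *Fau* and *Ubl5*, the E1 genes *Uba1* and *Uba6* and the E2 genes *Ube2l3* and *Ube2z*. In all, 34 of 35 were found and tested. LPS gave 11 called higher and 8 lower, PIC 15 and 6, and TBHQ alone 4 and 8, but under total library size the balance turned, with 5 and 12 for LPS and 6 and 17 for PIC. Adding TBHQ gave 2 called higher and 8 lower under LPS (median −0.03), and 2 higher and 10 lower under PIC (median −0.05). These counts were not stable: total library size gave 4 and 4 under LPS and 7 and 4 under PIC, and without LPS replicate 1, LPS replicate 3 or LPS + TBHQ replicate 2 the count lower under LPS was 5. The count higher was 1 under LPS without LPS replicate 1 or LPS + TBHQ replicate 3, and 1 under PIC without PIC replicate 2 or 3 or PIC + TBHQ replicate 1 or 2. *Ube2z*, an E2 enzyme charged by UBA6, had the largest fall under LPS, −0.29, and under PIC, −0.41, smaller than that of *Ube2l6* in the first comparison and close to it in the second. *Uba1*, the main E1 of ubiquitin itself, rose by 0.13 under LPS. *Sumo2* varied widely within some conditions, with 131, 1334 and 1603 counts in the 3 libraries with TBHQ alone.

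Among 12 further E3, E2, protease and receptor genes reported for ISG15, 11 were tested, since *Usp13* had no count. With LPS 5 were called higher and 2 lower, with PIC 5 and 3, and with TBHQ alone 4 and 1, and total library size raised the count lower to 5 with LPS and to 6 with PIC. The count higher with TBHQ alone was 2 or 3 with any 1 library left out. The count lower was 0 without control replicate 1, 2 or 3 or TBHQ replicate 1 or 3, and in DESeq2 and limma. With TBHQ 3 were called lower under LPS (median −0.05) and 2 under PIC (median −0.08). Under PIC the count lower was 4 with RLE, with a mean of at least 50 counts and in limma, and total library size gave 3 called higher. *Trim25*, a ligase that is both an ISG15 ligase and an interferon-stimulated gene, fell by 0.35 on the log2 scale under LPS and by 0.44 under PIC. *Itgal*, which encodes a chain of the LFA-1 receptor for secreted ISG15, fell by 0.67 and by 0.58. The third call under LPS, *Ube2e2* (−0.30), rested on single libraries, with an adjusted p in the edgeR quasi-likelihood test of 0.148 without LPS replicate 1, 0.0615 without LPS replicate 2 and 0.0958 without LPS + TBHQ replicate 2, and of 0.0525 in limma on log2(FPKM + 0.1).

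The list of other HERC genes held *Herc1* to *Herc4*. LPS gave 3 of 4 called higher (1 under total library size), and PIC 1 higher and 1 lower (2 higher without PIC replicate 3, 3 lower under total library size). For LPS + TBHQ against LPS edgeR called 0 of 4, with 1 of 4 at an unadjusted p under 0.05 and 0 of 4 in DESeq2 and in limma, and their log2 changes ran from −0.11 to 0.11. With PIC + TBHQ against PIC, *Herc3* was called higher (0.21), and *Herc4* (−0.18) and *Herc1* (−0.12) lower, against −0.72 for *Herc6*. These small calls did not hold throughout: *Herc3* lost its call without PIC replicate 1 (0.18), PIC replicate 2 (0.18) or PIC + TBHQ replicate 2 (0.18). *Herc1* lost it without PIC replicate 1 (−0.12), PIC replicate 2 (−0.13), PIC + TBHQ replicate 1 (−0.12) or PIC + TBHQ replicate 2 (−0.12), and also with no filter on low counts (−0.12) and in limma (−0.11 and −0.13). Total library size gave −0.05 for *Herc1* and −0.12 for *Herc4*, neither of them called. With TBHQ alone 1 of 4 was called, higher.

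At the type I interferon receptor, where USP18 acts, the list held the receptor chains, the kinases *Jak1* and *Tyk2*, *Stat2* and *Skp2*. With LPS 3 of 6 were called higher and 1 lower, with PIC 4 and 1, and with TBHQ alone 1 was called lower. Total library size gave 2 lower with LPS and 2 with PIC. For TBHQ alone 2 were lower without TBHQ replicate 3, and 1 was higher without control replicate 2, with RLE, with a mean of at least 50 counts and with only the compared conditions fitted. With TBHQ 2 were called lower and 1 higher under LPS (median −0.08), and 2 lower under PIC (median −0.06). *Stat2*, through which USP18 reaches the receptor, fell by 0.80 on the log2 scale with TBHQ under LPS and by 0.52 under PIC. *Jak1* fell by 0.13 and 0.19, the former not called without LPS replicate 1 (−0.09), LPS replicate 2 (−0.11), LPS + TBHQ replicate 2 (−0.12) or LPS + TBHQ replicate 3 (−0.11), nor under total library size (−0.10), with no filter on low counts (−0.11) or in limma (−0.12 and −0.12). *Skp2*, part of a ubiquitin ligase, rose by 0.30 under LPS.

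In the list on control of interferon-stimulated transcription, 8 of 10 genes were tested. The interferon gene *Ifna4* had no count, and *Ifnb1* had 4 to 12 counts per library with PIC and at most 3 in any other library. With LPS 5 of 8 were called higher, 6 were higher and 1 lower in PIC (*Irf3*), and for TBHQ alone 1 higher and 3 lower. With TBHQ 6 of 8 were called lower under LPS (median −0.67), and 6 lower and 1 higher under PIC (median −0.47). *Irf7*, the interferon-induced regulator of interferon genes, fell by 1.38 on the log2 scale under LPS and by 0.75 under PIC, from 173 ± 7.73 to 66.6 ± 1.44 FPKM and from 202 ± 3.89 to 119 ± 4.55 FPKM (mean ± SD, n = 3). *Socs3*, an inhibitor of cytokine signaling, fell by 0.85 and 0.69. *Irf1* fell by 0.51 and 0.43, and *Irf9*, a DNA-binding partner of STAT2, by 0.30 and 0.22. *Irf3*, which is activated rather than induced, had a change of −0.15 with PIC against the control that was not called without control replicate 2 or 3 or PIC replicate 1, 2 or 3, nor with RLE, with either other filter, with only the compared conditions fitted or in DESeq2. With TBHQ it was called higher under PIC (0.20), a call lost without PIC replicate 1 (0.18), PIC replicate 3 (0.18) or PIC + TBHQ replicate 2 (0.16).

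Of 10 genes whose proteins are reported targets of ISG15, 6 were called higher with LPS and 1 lower, 9 and 1 with PIC, and 1 and 5 with TBHQ alone. The single calls were not stable: lower with LPS was 0 without control replicate 2 or LPS replicate 1 or 3, lower with PIC was that of *Irf3* described above, and higher with TBHQ alone was 0 without TBHQ replicate 3. With TBHQ 7 of 10 were called lower under LPS (median −0.52), and 8 lower and 1 higher under PIC (median −0.39). The RNA sensors *Ddx58* and *Ifih1* fell by 0.63 and 0.67 on the log2 scale under LPS, and by 0.28 and 0.78 under PIC. *Parp12* fell by 0.58 and 0.36, and the RNA-activated kinase *Eif2ak2* by 0.47 and 0.42. *Ube2n* fell by 0.17 under PIC, a change not called under total library size (−0.10).

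The 3 genes most like each member were sought among 10450 genes with a mean of at least 50 counts, by the root mean square difference between the log2 changes from the control in the other 5 conditions, where 0 would be an identical pattern. *Ube2l6* was most like *Tap1* (0.0679), *Epsti1* (0.0706) and *Stat2* (0.0969). *Usp18* was also most like *Tap1* (0.0779), followed by *Rasgef1b* (0.081) and *Ifitm3* (0.0928). *Uba7* was most like *Bst2* (0.0929), and *Oas1g* (0.124) was also among its nearest 3. *Herc6* was most like *Gvin-ps1* (0.0673), *Lst1* (0.12) and *Abhd18* (0.123), none of which was among its nearest 3 when log2(FPKM + 1) was used. *Isg15* had no near match, its closest genes being *Adamts1* (0.271), *A530040E14Rik* (0.281) and *C3* (0.282). On log2(FPKM + 1) *A530040E14Rik* and *C3* were no longer among the nearest 3 of *Isg15*, nor *Rasgef1b* among those of *Usp18*. No member was among the nearest 3 of another.

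The promoters of the members were searched on both strands for letters known from interferon-regulated and antioxidant-regulated genes, in windows of 300 bases around the transcription start from RefSeq (GRCm38.p6, a build whose positions differ from those of the authors' files). Promoters of 4 of the 5 members were in the table, the exception being *Usp18*. The core of the interferon-stimulated response element, searched as 2 copies of GAAA with any 2 bases between, occurs in 3.44% of the 32851 promoters, and among the members it was found in *Isg15*. *Isg15* holds 3 overlapping matches, from −78 to −57 relative to the start, shown in capitals on the strand of the gene at chr4:156200860-156200911.
*Isg15*: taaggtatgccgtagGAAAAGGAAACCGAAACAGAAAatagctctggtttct
The gamma-activated site, searched as TTCNNNGAA (8.30% of promoters), was not matched in the 4 windows, and the antioxidant response element, searched as TGACNNNGC (12.4% of promoters), was matched once, in *Herc6* (GCTAGGTCA on the opposite strand, −22 to −14). These matches are letters in a window and not measured sites, and the windows of *Uba7* and *Ube2l6* held none of the 3.
Among the genes closest to the E1 and the E2 in pattern, *Bst2* and *Stat2* hold the same core, shown in capitals at chr8:71537572-71537617 and chr10:128270261-128270300, on the strand of each gene.
*Bst2*: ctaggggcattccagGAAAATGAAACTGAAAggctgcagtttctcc
*Stat2*: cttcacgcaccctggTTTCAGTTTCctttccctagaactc
In *Bst2* a TTCNNNGAA match, −136 to −128, shares bases with the first of its 2 matches. Of the 20 other interferon-stimulated genes, 15 had a promoter in the table and 7 of these held the core, against 0 of 28 genes of other ubiquitin-like systems. In the same 2 lists the gamma-activated site was matched in 4 of 15 (26.7%) and 2 of 28 (7.14%). The antioxidant response element was matched in 4 of 15 (26.7%) and 5 of 28 (17.9%).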

How the data were processed

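Gene expression was measured by poly(A)-selected RNA sequencing in 18 libraries, 3 per condition. The authors deposited raw counts per gene, made per the labels with HISAT2 2.0.5, StringTie 1.3.3b and featureCounts 1.5.0-p3. The authors also deposited FPKM values, which follow from the counts, the gene lengths and the library totals up to a constant per library (0.943 to 1.12), which differed by condition and was lowest in control and TBHQ and highest in PIC. The labels name both GRCm38 and mm39, and positions are those of the authors' files. Whether counting used the strand is not given in the sources used here, and genes that overlap the members had at most 7 counts per library.

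Counts were tested in R 4.3.3 with edgeR 4.0.16 (filterByExpr, TMM, glmQLFit and glmQLFTest, 1 coefficient per condition over all libraries), with Benjamini-Hochberg adjustment over 13691 genes. A gene was called at an adjusted p under 0.05. SEs come from the spread of log2 CPM (prior count 2) between replicates. The common dispersion was 0.00192, and 3 counts, taken as the floor of detection, correspond to 0.159 to 0.208 CPM. The fits were first tested on simulated data. Alternatives were RLE or total library size, other filters, DESeq2 1.42.0, limma 3.58.1 on log2(FPKM + 1) and log2(FPKM + 0.1), fits of the compared conditions only or with the replicate number, a stricter rule and leaving out each library.

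The members and lists were chosen with earlier results of these data known. Named from lists of up to 12 genes were those called with TBHQ under a stimulus, and from longer lists those among the 3 largest and smallest changes, with some genes of either kind left out. Figures were drawn with matplotlib 3.10.9.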

Additional observations from a re-analysis of the deposited data

Results flagged for a closer look

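The change with TBHQ differed between PIC and LPS for 4 of the 5 members. The differences, PIC minus LPS on the log2 scale, were 0.46 for *Isg15*, 0.42 for *Uba7*, 0.49 for *Ube2l6* and 0.30 for *Usp18*, each a smaller fall with TBHQ under PIC. The edgeR quasi-likelihood test of the difference gave Benjamini-Hochberg adjusted p of 0.000124, 0.000379, 9.91e-07 and 0.00119.

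The same test passed for other genes named from the lists. *Ifit3* (1.32, adjusted p = 6e-07) and *Oasl2* (1.3, adjusted p = 1.14e-11 in edgeR) had the largest differences. The differences were 0.63 for *Irf7* (edgeR adjusted p = 3.59e-10), 0.43 for *Bst2* (edgeR adjusted p = 6.14e-05), 0.35 for *Ddx58* (edgeR adjusted p = 0.00024), 0.28 for *Stat2* (edgeR adjusted p = 0.028, 0.00732 to 0.131 over the alternatives) and 0.19 for *Oas3* (edgeR adjusted p = 0.0308, 0.00336 to 0.155 over the alternatives). These 2 calls were not stable. That of *Stat2* was lost without LPS replicate 1 (0.22), PIC replicate 1 (0.27), PIC replicate 3 (0.25), LPS + TBHQ replicate 2 (0.26), LPS + TBHQ replicate 3 (0.28), PIC + TBHQ replicate 1 (0.25) or PIC + TBHQ replicate 2 (0.25), with only the compared conditions fitted, and in limma. That of *Oas3* was lost without LPS replicate 1 (0.18), LPS replicate 3 (0.16), PIC replicate 1 (0.15), PIC replicate 2 (0.18), LPS + TBHQ replicate 1 (0.20), LPS + TBHQ replicate 2 (0.19), LPS + TBHQ replicate 3 (0.19), PIC + TBHQ replicate 1 (0.18) or PIC + TBHQ replicate 3 (0.19), with RLE, with only the compared conditions fitted, and in limma. The other 5 were called under every alternative, leaving aside the stricter rule of a log2 change beyond 1.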

How the results depend on the processing

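For the 5 members over 10 comparisons, leaving out 1 library at a time changed no call in 330 values, and 447 values under the other alternatives kept their direction and call. The 3 exceptions came from total library size for PIC against LPS, where *Uba7* turned to −0.0845 and *Ube2l6* and *Herc6* lost their calls, leaving 2 members called higher. By its construction this scaling leaves the median shift described above in the data. It also moved the counts of all genes called higher and lower to 2379 and 6635 for PIC against control, 2364 and 5515 for PIC + TBHQ against control, 985 and 4373 for PIC against LPS, 890 and 2582 for PIC + TBHQ against LPS + TBHQ, and 235 and 74 for the difference of TBHQ effects, and to 3398 higher for PIC + TBHQ against PIC.

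The difference of TBHQ effects, with 113 genes higher and 138 lower, also moved. It had 237 lower with no filter, 253 lower in DESeq2, 62 higher with limma on log2(FPKM + 1), and 56 higher and 91 lower on log2(FPKM + 0.1). With 1 library left out it ranged from 72 to 115 higher and from 86 to 239 lower. The cause was not tested.

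A stricter rule, an adjusted p under 0.01 and a log2 change beyond 1, calls fewer genes by construction. Members called lower were 0 with TBHQ alone, 1 for LPS + TBHQ against LPS and 0 for PIC + TBHQ against PIC. Members called higher were 2 with LPS, 3 with PIC, 1 with PIC + TBHQ against control, 1 for PIC + TBHQ against LPS + TBHQ, and 0 for PIC against LPS and for the difference of TBHQ effects, and LPS + TBHQ against control had 0 in either direction. All genes called higher and lower were 71 and 119 with TBHQ alone, 577 and 303 with LPS, 951 and 694 with PIC, 377 and 214 for LPS + TBHQ against control, 642 and 458 for PIC + TBHQ against control, 32 and 151 for LPS + TBHQ against LPS, 63 and 170 for PIC + TBHQ against PIC, 146 and 31 for PIC against LPS, 106 and 10 for PIC + TBHQ against LPS + TBHQ, and 11 and 2 for the difference.

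The replicate numbers were not taken as pairing the samples: correlations of same-numbered deviations ran from −0.0719 to 0.142 over 45 pairs, with 2 above 0.1. With the replicate number as a block, *Isg15* changed by −1.19 for LPS + TBHQ against LPS and −0.73 for PIC + TBHQ against PIC, and the block changed no call of a member.

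Among single list genes, 11 values turned direction, each from a small or variable change. *Ufm1* turned to 0.0173 under total library size for PIC + TBHQ against PIC. *Sumo2* turned to −0.0423 with the block and to −0.22 and −0.24 with limma for LPS + TBHQ against LPS, where leaving out 1 library gave −1.52 to 0.474, while for PIC + TBHQ against PIC it gave −0.72 to 1.67. With TBHQ under LPS, leaving out 1 library gave −0.0125 to 0.0540 for *Ube2n*, −0.502 to 0.11 for *Ufsp1* and −0.0133 to 0.0537 for *Herc1*. Under PIC it gave −0.0371 to 0.140 for *Skp2*. Counting depth limits *Herc6* most among the members and *Mx1* and *Ifnb1* among the lists.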
